A study of Bos taurus with 35 samples.

Results

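The comparison described here set *longissimus thoracis* (*LT*) muscle taken 72 h *post-mortem* against muscle of the same carcasses taken at 0 h, which was sampled 45 min after death. Its members were chosen by the time point in the sample labels and paired by animal number, and made up 14 of the 35 samples of the study. The animals were 7 British × Continental crossbred heifers of 525 to 635 kg with no other treatment, numbered 101, 103, 104, 107, 201, 202 and 206. They were stunned with a captive bolt and bled, and their left carcass sides hung in an abattoir cooler. The labels place the cores of all time points above the grading site of the left side and give no position of the single cores. Total counts were 21268791 to 65520943 per library at 0 h (median 53810583) and 23359118 to 104275821 at 72 h (median 41664076).

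After death a muscle receives no more oxygen or nutrients, and its cells use up glycogen and ATP and pass into rigor while the carcass cools. Transcription may go on for some time in such tissue, while messenger RNAs decay at rates that differ between transcripts. A sequencing library reports the share of each transcript in the RNA that is left, so that a gene called higher had a larger share, not necessarily more molecules. The sample is a piece of tissue and holds fat cells, connective tissue, vessels, nerve and immune cells beside muscle fibres, and fewer cells of a type cannot be told apart from less RNA per cell.

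At 72 h, 1434 genes were upregulated and 2256 were downregulated, together 3690 of 14630 genes tested or 25.2% (9.8% higher and 15.4% lower). A DE gene had an FDR below 0.05 and changed by more than 1.5 fold in edgeR's quasi-likelihood test with animal as a block. The change went the same way in all 7 animals for 1092 of the upregulated and 1873 of the downregulated genes. All libraries of 72 h lay above all of 0 h for 611 upregulated genes, and below them for 1097 downregulated genes. Over all genes tested, 7.9% and 10.1% were apart in this way. Changes of more than 4 fold were found in 21 upregulated and 113 downregulated genes. The median of the absolute log2 fold change was 0.76 among upregulated and 0.93 among downregulated genes, and the median log2 fold change of all genes tested was 0.01. With library totals in place of TMM factors the median of all genes moved by -0.17, and the calls split into 702 upregulated and 3238 downregulated genes.

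**Figure D1:**
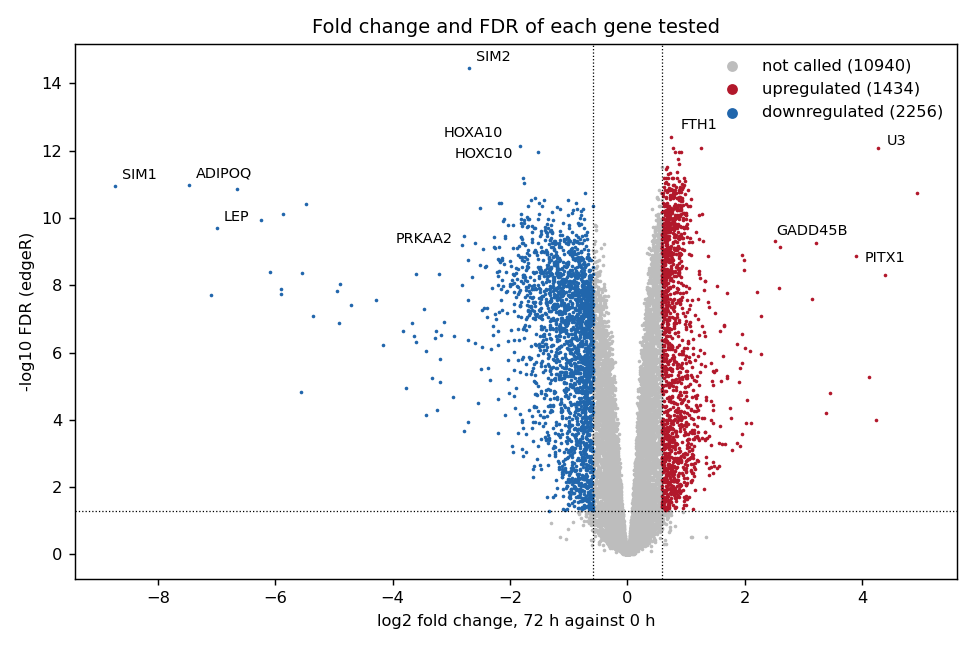
Each point is a gene, with its log2 fold change at 72 h against 0 h on the horizontal axis and the -log10 FDR of edgeR on the vertical axis. Dotted lines mark an FDR of 0.05 and a fold change of 1.5. *SIM2* has the smallest FDR (3.56e-15), and the 1434 red points on the right reach less far from 0 than the 2256 blue points on the left. The horizontal place of *SIM1*, which had no read in any 72 h library, depends on the model and is not a measured size.

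The 7 animals changed by unequal amounts. Over the 3690 called genes, each animal's log2 ratios were regressed on the mean of the other 6, as a description of genes chosen by the same contrast. The slope was 0.60 in animal 202 and 1.26 in animal 206, and 0.87 to 1.10 in the other animals. Between 92.5% and 98.7% of the called genes had the sign of the other animals. Without animal 202 the counts were 1556 upregulated and 2491 downregulated genes, and without animal 206 they were 1286 and 2155.

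The gene with the smallest FDR was *SIM2*, a basic helix-loop-helix transcription factor of embryonic patterning that is also made in developing limb muscle. Its level was 1.33 to 4.99 CPM at 0 h (median 3.27), 1.89 to 5.02 CPM at 48 h (median 3.29) and 0.180 to 0.731 CPM at 72 h (median 0.452). Every library of 72 h lay below every library of both other time points. The log2 fold change of *SIM2* was -2.71 at 72 h against 0 h (SE 0.13, FDR 3.56e-15), and 0.11 (SE 0.10, FDR 0.413) at 48 h against 0 h. Between 48 h and 72 h it was -2.81 (SE 0.13, FDR 1.39e-15). Thus the level of *SIM2* at 48 h was not separable from that at 0 h by this test, and the fall was measured in the last interval, in 7 of 7 animals.

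*SIM1*, the paralogue of *SIM2*, had 22 to 81 reads in each 0 h library, 383 in all, and 0 reads in each of the 7 libraries of 72 h. Against a floor of 3 reads over the 72 h group, its share was at least 130-fold lower (FDR 1.15e-11). At 48 h it was still read, with 0.251 to 0.743 CPM (median 0.594), against 0.681 to 1.40 CPM (median 1.06) at 0 h. Floors of this kind cover counting error only.

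HOX genes encode the homeodomain factors that mark position along the body and limb axes, and adult muscle keeps an expression pattern that depends on where it lies. Of the 39 HOX symbols listed, 9 belonged to genes named here, of which 7 were downregulated and 2 upregulated at 72 h. The median of their log2 fold changes was -0.77, and between 48 h and 72 h 6 were downregulated and 0 upregulated, with a median of -0.92. At 48 h against 0 h the same 9 genes had a median of 0.21, with 1 upregulated and 1 downregulated. Over all genes tested 3.73% were downregulated in the last interval, and 2.96% were upregulated and 6.3% downregulated at 48 h against 0 h (9.26% together). Symbols were at hand only for genes that were listed as DE at some time point of the same samples, so that the remaining HOX symbols are not accounted for and the share of members called in every list is largely set by this choice. Of the 3106 genes tested that had a symbol, 37.3% were upregulated and 59% downregulated at 72 h against 0 h, and the 2 and 7 HOX genes stood near this split. The shares were 9.92% and 25.2% at 48 h against 0 h, and 2.12% and 14% between 48 h and 72 h. The labels do not give the place of each core along the muscle, and each time point was a separate core. For HOX genes, *SIM1*, *SIM2* and *PITX1* the place of the 72 h cores and time cannot be told apart. The same holds for every other gene, including the cell type markers below.

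*HOXA10* had 7.91 to 14.5 CPM at 0 h (median 12.4), 7.88 to 15.8 CPM at 48 h (median 13.03) and 1.59 to 4.03 CPM at 72 h (median 3.39). *HOXC10*, which like *HOXA10* belongs to the posterior groups of its cluster, had 51.5 to 67.4 CPM at 0 h (median 54.3), 48.5 to 73.2 CPM at 48 h (median 68.2) and 14.7 to 27.8 CPM at 72 h (median 19.6). For both genes the 7 libraries of 72 h lay below all libraries of 0 h and of 48 h. The log2 fold change at 72 h against 0 h was -1.84 (SE 0.11) for *HOXA10* (FDR 7.43e-13) and -1.53 (SE 0.09) for *HOXC10* (FDR 1.12e-12). In the last interval the values were -1.89 (SE 0.11, FDR 4.16e-13) and -1.74 (SE 0.10, FDR 1.74e-13). At 48 h against 0 h they were 0.05 (SE 0.10, FDR 0.686) and 0.21 (SE 0.09, FDR 0.0639).

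*HOXA9* had 25.6 to 46.6 CPM at 0 h (median 35.3), 36.02 to 49.4 CPM at 48 h (median 39.8) and 11.8 to 34.03 CPM at 72 h (median 18.8), so that the groups of 0 h and 72 h overlapped, and animal 206 was higher at 72 h. Its log2 fold change at 72 h was -0.77 (SE 0.13, FDR 1.19e-05). *HOXB4* changed by -0.69 (SE 0.12, FDR 1.07e-05) and *HOXA6* by -0.92 (SE 0.09, FDR 5.39e-10), both lower in 7 of 7 animals. *HOXD10* was rarely read, with 0.104 to 0.388 CPM at 0 h (median 0.257) and 0.0485 to 0.152 CPM at 72 h (median 0.0628), and changed by -1.72 (SE 0.38, FDR 0.000259). The libraries of *HOXA6* did not overlap between 0 h and 72 h, whereas those of *HOXB4* and *HOXD10* did.

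*HOXD4* had 5.87 to 7.99 CPM at 0 h (median 6.99), 2.89 to 7.696 CPM at 48 h (median 4.75) and 1.47 to 9.11 CPM at 72 h (median 4.23), and was lower at 72 h in 5 of 7 animals. Its log2 fold change was -0.63 (SE 0.19, FDR 0.00556) at 72 h and -0.60 (SE 0.20, FDR 0.0129) at 48 h against 0 h, and it was no longer called without animal 103, 104 or 206 or without the animal block (-0.41, -0.52, -0.58 and -0.46).

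The 2 other named HOX genes went the other way. *HOXC9*, a neighbour of *HOXC10* in the same cluster, had 10.7 to 14.4 CPM at 0 h (median 11.97), 13.1 to 21.2 CPM at 48 h (median 15.8) and 19.4 to 28.9 CPM at 72 h (median 25.7). All libraries of 72 h lay above those of 0 h, with a log2 fold change of 0.98 (SE 0.07, FDR 1.88e-11). *HOXA4* rose by 0.75 (SE 0.11, FDR 7.97e-07), in 6 of 7 animals. Its value at 48 h against 0 h was 0.63 (SE 0.11, FDR 5.37e-05). With library totals it was no longer called. The gene of the microRNA bta-mir-196b, which lies next to *HOXA9* in the RefSeq assembly ARS-UCD2.0, was named after its values were seen. Reads over it, which are not the mature microRNA, gave 0.242 to 0.599 CPM at 0 h (median 0.388) and 0.0601 to 0.335 CPM at 72 h (median 0.126) and a log2 fold change of -1.54 (SE 0.28, FDR 1.85e-05), with groups that overlapped.

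*PITX1*, a homeodomain factor of hindlimb identity, rose at 72 h from a low level. It had 0.0321 to 0.279 CPM at 0 h (median 0.157), 0.0754 to 0.247 CPM at 48 h (median 0.200) and 0.0419 to 4.76 CPM at 72 h (median 2.93). In animals 101, 103, 104, 107 and 202 the level at 72 h was 2.30 to 4.76 CPM, in animal 201 it was 0.456 CPM, and in animal 206 it was 0.0419 CPM against 0.0321 CPM at 0 h. The groups therefore overlapped through animal 206. The log2 fold change at 72 h was 3.90 (SE 0.39, FDR 1.38e-09) against 0 h and 3.64 (SE 0.39, FDR 4.65e-07) against 48 h, and leaving out single animals gave values between 3.67 and 4.13. *SIX2*, a homeodomain factor of muscle and connective tissue development, changed by 0.72 (SE 0.11, FDR 1.83e-06), higher in 7 of 7 animals. Without animal 201 its value was 0.58, just under the fold change threshold.

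In the test of 72 h against 48 h, 115 genes were upregulated and 545 downregulated, together 4.51% of the genes tested (0.786% higher), and 28 and 317 without the animal block. When the same comparison was tested against a fold change of 1.5 instead of against 0 (edgeR's glmTreat), 11 genes passed, 3 higher and 8 lower. Of these, 8 had a symbol, and 5 of the 8 were members of the HOX and developmental transcription factor lists (*SIM1*, *SIM2*, *HOXA10*, *HOXC10* and *PITX1*). The others were *PRR32*, *LAMA2*, the gene of a laminin chain of the basement membrane, and *CD5L*, a macrophage gene. These names follow from the threshold and were chosen after the values were seen. The HOX and developmental lists held 9 and 17 of the 3106 genes tested with a symbol, and were written with earlier results of these data known.

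**Figure D2:**
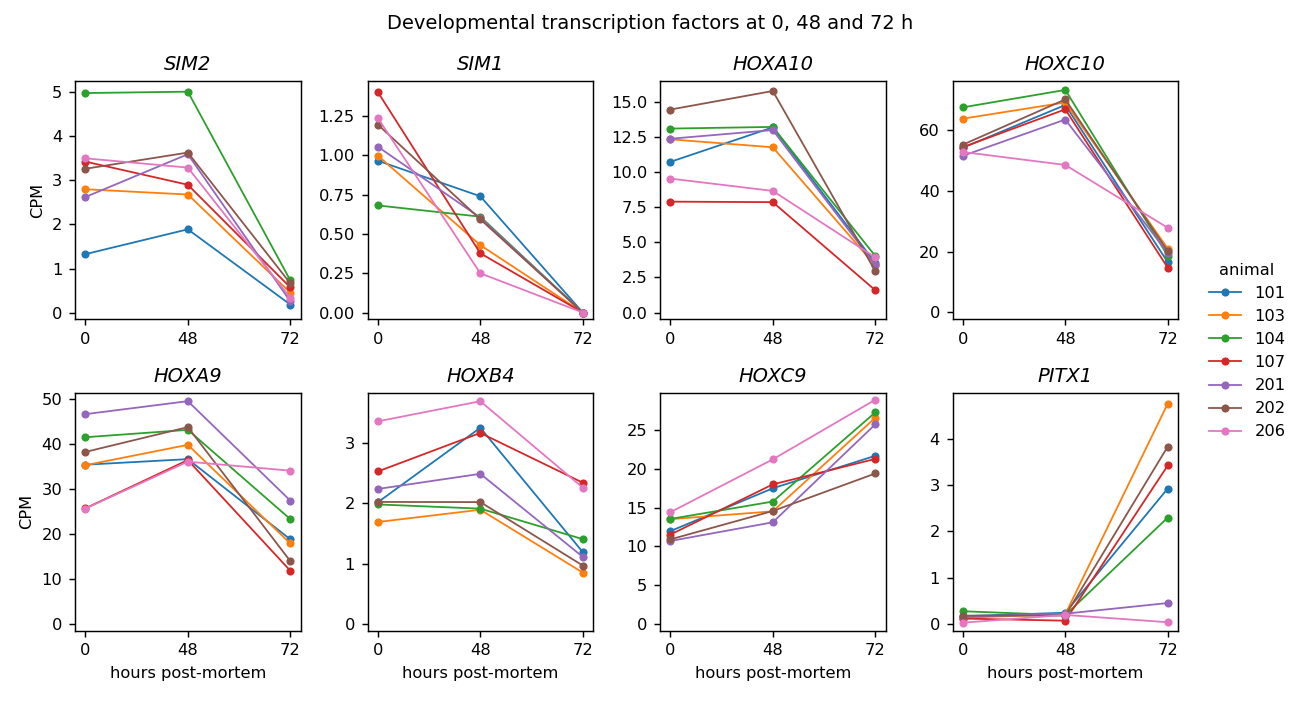
CPM of 8 transcription factor genes (vertical axes, linear) at 0, 48 and 72 h *post-mortem* (horizontal axes), with 1 line per animal. *SIM2*, *HOXA10* and *HOXC10* lie near their 0 h levels at 48 h and are lower at 72 h in 7 of 7 animals, *SIM1* reaches 0 in all, *HOXC9* is higher at 72 h, and *PITX1* rises in animals 101, 103, 104, 107 and 202 above 2 CPM.

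The list of myogenic and developmental transcription factors, which also holds *SIM1*, *SIM2*, *PITX1* and *SIX2*, had 17 of 44 symbols named. Of these, 6 were upregulated and 11 downregulated, near the split of all genes with a symbol (37.3% and 59%), with a median log2 fold change of -0.97. *TEAD1*, a nuclear partner of YAP that binds muscle gene promoters, had 36.1 to 57.2 CPM at 0 h (median 47.3) and 6.53 to 29.4 CPM at 72 h (median 12.9) (log2 fold change -1.88, SE 0.21, FDR 1.04e-08). *MYOD1*, the master regulator of myogenic commitment, had 6.58 to 37.2 CPM at 0 h (median 15.1) and 8.14 to 49.1 CPM at 72 h (median 29.6), which overlapped widely between groups, and was higher in 7 of 7 animals (log2 fold change 0.68, SE 0.09, FDR 1.17e-07). Without the animal block *MYOD1* was no longer called (FDR 0.224). Of 10 satellite cell markers 4 were named, 1 upregulated and 3 downregulated, too few to set apart from the split of all genes with a symbol. The downregulated ones included *MET*, the receptor of hepatocyte growth factor (log2 fold change -1.69, SE 0.18, FDR 2.77e-09).

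Among downregulated genes that averaged 1 CPM or more and fell in 7 of 7 animals, the 5 with the largest log2 fold changes were fat cell genes. Of 24 adipocyte markers, 22 were named, of which 21 were downregulated and 0 upregulated, with a median log2 fold change of -2.59. Among all genes with a symbol, 59% were downregulated. *ADIPOQ*, which encodes the hormone adiponectin, had 4.55 to 46.2 CPM at 0 h (median 27.7) and 0.0162 to 0.240 CPM at 72 h (median 0.135). *LEP*, which encodes leptin, had 0.721 to 11.98 CPM at 0 h (median 4.37) and 0.00 to 0.126 CPM at 72 h (median 0.0271). For both genes the 0 h and 72 h libraries did not overlap, and the log2 fold change was -7.48 (SE 0.54, FDR 1.06e-11) for *ADIPOQ* and -6.999 (SE 0.62, FDR 1.96e-10) for *LEP*.

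*TRARG1*, a regulator of glucose transporter trafficking in fat cells, changed by -6.64 (SE 0.49), *THRSP*, a regulator of lipid synthesis, by -6.25 (SE 0.54), and *CIDEC*, a lipid droplet protein, by -5.87 (SE 0.49). None of the 3 overlapped between groups. Summed over the 22 named markers, the level was 814 to 2443 CPM at 0 h and 355 to 599 CPM at 72 h, lower in 7 of 7 animals. The adipocyte list had 0 members called in either direction between 48 h and 72 h, with a median of 0.02, against -2.66 at 48 h against 0 h. No adipocyte marker named here was without reads in every 72 h library. How much of any other change belonged to the change in this signal was not tested. For these genes, and for the markers of other cell types below, the place of the core and time cannot be told apart.

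Immune cell genes moved in opposite directions. Of 21 macrophage markers, 16 were named and all 16 were downregulated (median log2 fold change -1.66), and 10 were downregulated between 48 h and 72 h. The shares of all genes with a symbol were 59% and 14%. *CD163*, the scavenger receptor for haemoglobin complexes, had 5.46 to 26.6 CPM at 0 h (median 10.7) and 1.004 to 9.79 CPM at 72 h (median 2.603) (log2 fold change -1.99, SE 0.20, FDR 1.91e-09). *CYBB*, the catalytic subunit of the phagocyte NADPH oxidase, had 15.8 to 17.7 CPM at 0 h (median 16.5) and 3.43 to 10.6 CPM at 72 h (median 4.71) (log2 fold change -1.67, SE 0.17, FDR 1.29e-09). The *CYBB* libraries did not overlap, while those of *CD163* did, although 7 of 7 animals fell.

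*CD5L*, a secreted macrophage protein, was downregulated, with a log2 fold change of -2.19 against 0 h (SE 0.21, FDR 7.5e-10) and -1.69 (SE 0.22, FDR 1.94e-05) against 48 h. Of 26 complement genes listed 16 were named, of which 15 were downregulated, and 7 between 48 h and 72 h. Of all genes with a symbol, 59% and 14% were downregulated in these comparisons. The lists overlap, since *C1QA*, *C1QB*, *C1QC* and *VSIG4* are also macrophage markers and *CFD* is also an adipocyte marker. Downregulated complement genes included *C1QC* (log2 fold change -1.70, SE 0.21, FDR 5.45e-08), a chain of the recognition molecule C1q. Another was *C1S* (log2 fold change -1.09, SE 0.12, FDR 4.66e-09), a protease of the classical pathway. The exception was *C8G*, a subunit of the terminal complex, which rose (log2 fold change 1.10, SE 0.10, FDR 5.15e-10). Summed macrophage markers were 70.5 to 195 CPM at 0 h and 21.4 to 65.7 CPM at 72 h, lower in 7 of 7 animals.

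T and NK cell markers rose, with 21 of 28 named and all 21 upregulated, or 14 with library totals (median 0.90). Symbols came only from lists of DE genes, and 37.3% of all genes with a symbol were upregulated, against 9.8% of all genes tested. *ZAP70*, the kinase of T cell receptor signalling, had 1.47 to 2.21 CPM at 0 h (median 2.01) and 3.25 to 4.33 CPM at 72 h (median 4.02) (log2 fold change 1.07, SE 0.13, FDR 3.73e-08), and its groups did not overlap. *CD8A*, the co-receptor of cytotoxic T cells, changed by 1.01 (SE 0.16) and *KLRK1*, an activating receptor of NK cells, by 1.23 (SE 0.20), both higher in 7 of 7 animals with overlapping groups. Between 48 h and 72 h, 0 of the 21 were called, with a median of 0.03. The summed level was 15.0 to 25.2 CPM at 0 h and 28.4 to 40.4 CPM at 72 h, so that the groups did not overlap.

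Of 17 fibroblast markers 7 were named, 6 downregulated and 1 upregulated (median -0.88). They included *COL6A3*, a collagen VI chain (log2 fold change -0.88, SE 0.12, FDR 2.05e-07), *FBN1*, the microfibril protein fibrillin (log2 fold change -1.15, SE 0.13, FDR 1.75e-08), and *SCARA5*, a ferritin receptor of mesenchymal cells (log2 fold change -0.92, SE 0.12, FDR 1.7e-07). Schwann cell and nerve markers (20 symbols listed) gave 14 upregulated and 2 downregulated of 16 named genes. Endothelial markers (17 listed) gave 5 upregulated of 5 named, and pericyte and smooth muscle markers (14 listed) 7 upregulated and 1 downregulated of 9 named. With library totals the upregulated were 11, 2 and 1. Unnamed markers are not accounted for, and 37.3% of all genes with a symbol were upregulated and 59% downregulated. B cell and neutrophil markers, with 3 named genes each, gave 1 upregulated and 1 downregulated each, and the single mast cell marker named was upregulated. The summed B cell markers were lower at 72 h in 7 of 7 animals, and the summed neutrophil markers were higher in 3. Of 4 erythroid genes 1 was upregulated at 72 h against 0 h. At 48 h against 0 h 3 were upregulated, and between 48 h and 72 h 3 were downregulated. The summed erythroid level was 111 to 147 CPM at 0 h and 173 to 277 CPM at 72 h, higher in 7 of 7 animals. The summed levels of the fibroblast markers fell in 7 of 7 animals, from 477 to 859 CPM at 0 h to 185 to 472 CPM at 72 h. Whether these shifts carry the changes of genes that several cell types share was not tested.

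**Figure D3:**
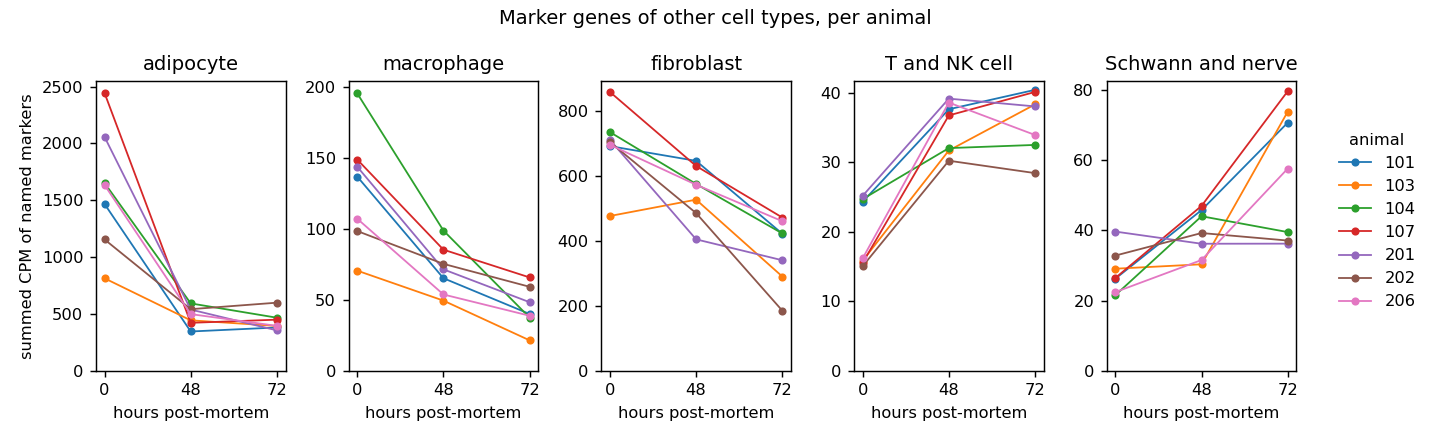
Summed CPM of the named markers of 5 cell types (vertical axes, from 0) at 0, 48 and 72 h *post-mortem*, with 1 line per animal. Adipocyte, macrophage and fibroblast markers are lower at 72 h than at 0 h in 7 of 7 animals, T and NK cell markers are higher in 7 of 7, and Schwann cell and nerve markers are higher in 6 of 7.

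Muscle fibre genes went both ways. Of 56 sarcomere and contraction symbols 29 were named, of which 18 were upregulated and 10 downregulated, and 8 and 10 with library totals. With TMM factors, 37.3% of all genes with a symbol were upregulated and 59% downregulated. *TNNT3*, fast troponin T, had 10437 to 12943 CPM at 0 h (median 11517) and 17857 to 30759 CPM at 72 h (median 20748) (log2 fold change 0.96, SE 0.09, FDR 2.86e-10). *TNNI2*, fast troponin I, had 5196 to 6548 CPM at 0 h (median 6165) and 9400.2 to 15759 CPM at 72 h (median 11659) (log2 fold change 0.99, SE 0.08, FDR 8.17e-11). Both groups of libraries were apart for each gene, with 72 h above.

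The calcium sensor *TNNC2* changed by 0.74 (SE 0.08), the thin filament gene *TPM2* by 0.72 (SE 0.08), and *CKM*, the creatine kinase that regenerates ATP, by 0.63 (SE 0.06), each higher in 7 of 7 animals without overlap. *NEB*, the giant ruler protein of the thin filament, had 6794 to 8445 CPM at 0 h (median 8165) and 2549 to 6609 CPM at 72 h (median 5184) (log2 fold change -0.70, SE 0.13, FDR 3.39e-05). *RYR1*, the calcium release channel of the sarcoplasmic reticulum, had 4205 to 6138 CPM at 0 h (median 4807) and 1466 to 3615 CPM at 72 h (median 3085) (log2 fold change -0.82, SE 0.14, FDR 8.05e-06). Both were lower in every library of 72 h. Without animal 206 *NEB* changed by -0.54, under the fold change threshold.

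*CMYA5*, a large scaffold protein of the costamere region, changed by -0.89 (SE 0.14), *MYPN*, a Z-disc protein, by -1.75 (SE 0.24), *MYBPC1*, slow myosin-binding protein C, by -0.71 (SE 0.10), and *ATP2A2*, the slow calcium pump, by -1.35 (SE 0.30) on the log2 scale. Slow fibre genes went both ways, since the slow troponins *TNNT1* and *TNNI1* rose by 0.83 and 0.94. The *ATP2A2* libraries overlapped, with 2102 to 3936 CPM at 0 h (median 2908) and 559 to 3249 CPM at 72 h (median 1185). Among 16 muscle fibre markers 7 were named, 5 upregulated (1 with library totals) and 2 downregulated, and their summed level was 52251 to 62388 CPM at 0 h and 72526 to 109391 CPM at 72 h. The defining genes of skeletal muscle were thus present at high level in every library. At the neuromuscular junction, 3 of 8 named genes were upregulated and 5 downregulated, near the split of all genes with a symbol (37.3% and 59%). The downregulated ones included *MUSK*, the receptor kinase that clusters acetylcholine receptors (log2 fold change -1.21, SE 0.16, FDR 1.41e-07).

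The AMPK, insulin, mTOR and FoxO list had 20 of 42 symbols named, of which 19 were downregulated and 1 upregulated (median -0.96). Symbols came only from lists of DE genes, and 59% of all genes with a symbol were downregulated and 37.3% upregulated. *PRKAA2*, the catalytic subunit of AMPK that prevails in muscle, had 18.3 to 28.04 CPM at 0 h (median 23.3) and 2.61 to 8.62 CPM at 72 h (median 2.99) (log2 fold change -2.59, SE 0.24, FDR 5.58e-10). *SESN3*, a stress-induced AMPK activator, had 6.88 to 13.99 CPM at 0 h (median 9.76) and 1.67 to 3.24 CPM at 72 h (median 3.14) (log2 fold change -1.82, SE 0.15, FDR 7.75e-11). No library of 72 h reached the lowest of 0 h in either gene.

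*FBXO32*, the ubiquitin ligase atrogin-1 of muscle atrophy, changed by -1.74 (SE 0.17), and *EIF4EBP1*, the translation repressor downstream of mTOR, was the 1 upregulated member, by 0.75 (SE 0.07). Of 10 named glycogen and glycolysis genes 7 were downregulated and 3 upregulated, also near the split of all genes with a symbol. *GBE1*, the glycogen branching enzyme, had 27.1 to 40.2 CPM at 0 h (median 32.3) and 12.4 to 31.5 CPM at 72 h (median 20.4) (log2 fold change -0.68, SE 0.08, FDR 5.62e-08), lower in 7 of 7 animals with overlapping groups. *PGAM2*, muscle phosphoglycerate mutase, had 1022 to 1376 CPM at 0 h (median 1229) and 1652 to 2562 CPM at 72 h (median 2112) (log2 fold change 0.79, SE 0.07, FDR 1.35e-10), with no overlap. Another upregulated member was *PFKFB1*, which sets the level of fructose 2,6-bisphosphate (log2 fold change 0.67, SE 0.04).

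Named genes of protein synthesis and respiration were mostly upregulated, by small amounts. Symbols came only from lists of DE genes. The share called and the lower bound of these changes were largely set by this choice, and unnamed members are not accounted for. All 63 named genes of cytosolic ribosomal proteins were upregulated (62 of 79 symbols, 1 of them carried by 2 genes), with log2 fold changes that had a median of 0.79. In 62 of the 63, every library of 72 h lay above every library of 0 h. The same held for 7.9% of all genes tested and for 537 of the 3106 genes with a symbol. *RPL36A*, of the large subunit, had 71.5 to 86.9 CPM at 0 h (median 76.97) and 118 to 158 CPM at 72 h (median 132) (log2 fold change 0.77, SE 0.05, FDR 6.58e-12), and *RPS12*, of the small subunit, changed by 0.63 (SE 0.04). Ribosomal protein genes have many processed copies in the genome, and reads may be shared with them. With library totals in place of TMM factors, 36 of the 63 were still called.

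Of 77 nuclear genes of the respiratory chain listed, 33 were named, of which 32 were upregulated and 1 was downregulated. Of 78 mitochondrial ribosomal proteins listed, 22 were named, of which 21 were upregulated and 1 downregulated. With library totals 15 of the 32 and 6 of the 21 were still called upregulated. *NDUFA3*, a complex I subunit, had 46.6 to 72.1 CPM at 0 h (median 57.2) and 82.5 to 169.8 CPM at 72 h (median 123) (log2 fold change 1.09, SE 0.08, FDR 2.8e-11), and the complex V subunit *ATP5F1E* changed by 0.82 (SE 0.07). The exceptions were *NDUFS1*, a core subunit of complex I (log2 fold change -0.94, SE 0.12, FDR 4.54e-08), and *MRPS35* (log2 fold change -0.69, SE 0.10, FDR 1e-06). The median changes of both lists, 0.71 and 0.68, had spreads of 0.13 and 0.14 (SD between 7 animals). None of the named members of these 3 lists was called between 48 h and 72 h, at medians of 0.30, 0.29 and 0.30. Of 38 translation factors listed 4 were named, 3 upregulated and 1 downregulated. Of 31 proteasome subunits listed 2 were named, 1 upregulated and 1 downregulated.

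Mitosis genes, 28 of 34 named, gave 27 upregulated (17 with library totals) and 0 downregulated (median 0.80). For these and the chromatin genes below, the split of all genes with a symbol was 37.3% upregulated and 59% downregulated. *MKI67*, the proliferation marker, had 1.796 to 3.83 CPM at 0 h (median 2.48) and 2.68 to 6.25 CPM at 72 h (median 4.76) (log2 fold change 0.83, SE 0.14, FDR 5.91e-06). *TOP2A*, the topoisomerase of chromosome condensation, changed by 0.85 (SE 0.13), and *PLK1*, a mitotic kinase, by 0.76 (SE 0.09). All 3 were higher in 7 of 7 animals with groups that overlapped. Chromatin modifiers fell in 21 of 24 named genes, among them *KMT2C*, a histone methyltransferase (log2 fold change -0.89, SE 0.09, FDR 2.96e-09), whereas *EZH2*, the methyltransferase of Polycomb, rose (log2 fold change 0.75, SE 0.07, FDR 6.71e-10).

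Stress genes were mostly upregulated, 10 of 13 named immediate early and stress genes (8 with library totals), with 2 downregulated. The split of all genes with a symbol was 37.3% upregulated and 59% downregulated. *GADD45B*, a stress sensor that acts on MAP kinase signalling, had 10.03 to 18.1 CPM at 0 h (median 13.02) and 30.8 to 142 CPM at 72 h (median 109) (log2 fold change 2.59, SE 0.25, FDR 7.44e-10). *GADD45G*, its relative, changed by 1.37 (SE 0.14), and the AP-1 subunit *JUNB* by 1.32 (SE 0.15). *MDM2*, the ubiquitin ligase of p53, went the other way (log2 fold change -1.46, SE 0.16, FDR 8.24e-09). The *GADD45B*, *GADD45G* and *MDM2* libraries did not overlap between 0 h and 72 h.

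Of 14 named heat shock genes 11 were upregulated (8 with library totals) and 3 downregulated. The muscle chaperones *HSPB2* and *HSPB6* changed by 0.78 (SE 0.06) and 0.78 (SE 0.07), and *HSF4*, a heat shock transcription factor, by 0.91 (SE 0.08). *HSPA13*, a microsomal member of the HSP70 family, fell (log2 fold change -0.91, SE 0.08, FDR 4.53e-10). Of 6 named hypoxia genes 2 were upregulated and 4 downregulated, near the split of all genes with a symbol (37.3% and 59%).

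Clock genes went both ways, 3 upregulated and 5 downregulated of 8 named, a split like that of all genes with a symbol (37.3% and 59%). *NR1D2*, a nuclear receptor that represses the clock, had 59.6 to 80.01 CPM at 0 h (median 76.03) and 11.1 to 50.2 CPM at 72 h (median 21.3) (log2 fold change -1.74, SE 0.19, FDR 5.8e-09). *CLOCK* (log2 fold change -1.48, SE 0.17, FDR 1.61e-08), the activating partner of the core loop, and *RORA* (log2 fold change -1.31, SE 0.18, FDR 3.98e-07), which drives *BMAL1*, fell as well, while *NPAS2*, a paralogue of *CLOCK*, rose (log2 fold change 0.95, SE 0.07, FDR 1.2e-11). For these 4 genes the 0 h and 72 h libraries did not overlap. *PER1* was close to the threshold (log2 fold change 0.59, SE 0.08, FDR 1.74e-07).

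The ferritin genes of iron storage rose and a regulator of their translation fell. *FTH1*, the ferritin heavy chain, had the smallest FDR of all upregulated genes and had 883 to 1173 CPM at 0 h (median 1092) and 1429 to 2167 CPM at 72 h (median 1760.4) (log2 fold change 0.75, SE 0.04, FDR 3.79e-13). *FTL*, the light chain, changed by 0.88 (SE 0.09). *IREB2*, an RNA-binding protein that blocks ferritin translation when iron is scarce, had 34.7 to 45.1 CPM at 0 h (median 40.3) and 6.77 to 22.6 CPM at 72 h (median 10.5) (log2 fold change -1.85, SE 0.18, FDR 6.98e-10). The groups did not overlap in any of the 3. In the whole list 7 of 13 named genes were upregulated (4 with library totals) and 6 downregulated, so that iron genes went both ways. The largest log2 fold changes of the list were 3.46 for *HAMP*, -3.26 for *TF* and -2.18 for *TFRC*.

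Further genes named by rank belong to no list. Beside *FTH1*, genes with small FDRs among the upregulated were *FXYD1*, a regulator of the sodium pump (log2 fold change 0.77, SE 0.05), the small nucleolar RNA U3 (log2 fold change 4.27, SE 0.26), *NMRK2*, a muscle kinase of NAD synthesis (log2 fold change 1.25, SE 0.08), *DBN1*, an actin-binding protein (log2 fold change 0.89, SE 0.06), *TCEA3*, a transcription elongation factor (log2 fold change 0.81, SE 0.05), and *ANAPC15*, a subunit of the anaphase-promoting complex (log2 fold change 0.86, SE 0.05). *NMRK2* had 297 to 785 CPM at 0 h (median 492.6) and 611 to 1889 CPM at 72 h (median 1262). Its groups overlapped although it was higher in 7 of 7 animals.

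Among upregulated genes that averaged 1 CPM or more and rose in 7 of 7 animals, the largest log2 fold changes were those of U3, 5_8S_rRNA (log2 fold change 3.22, SE 0.30), *GADD45B*, *PNMT*, the enzyme that makes adrenaline (log2 fold change 2.58, SE 0.29), and *TNFSF14*, a TNF family ligand (log2 fold change 2.28, SE 0.34). U3 and 5_8S_rRNA carry no poly(A) tail in general and have many copies in the genome, so that their counts are uncertain. Among downregulated genes *PLXNC1*, a semaphorin receptor (log2 fold change -1.78, SE 0.12), the zinc finger gene *ZNF10* (log2 fold change -1.76, SE 0.12) and *EFCAB14* (log2 fold change -0.72, SE 0.05) were named by FDR beside *SIM2*, *HOXA10*, *HOXC10*, *ADIPOQ* and *TRARG1*. The libraries of these 3 were apart between 0 h and 72 h.

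**Figure D4:**
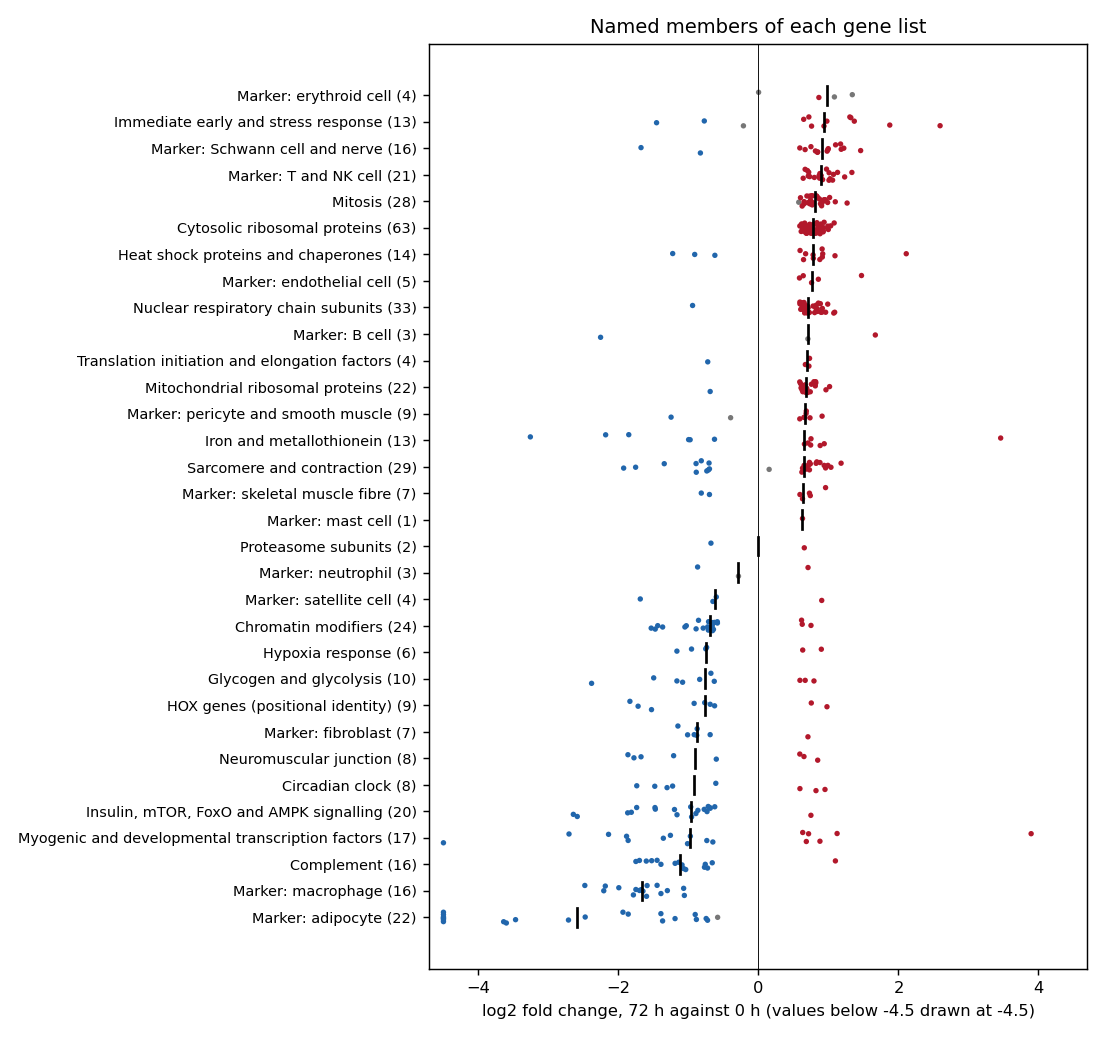
Log2 fold change at 72 h against 0 h (horizontal axis) of each named member of the 32 gene lists, with the number of named genes in brackets. Red points were upregulated, blue points downregulated and grey points not called, and black bars are medians. Cytosolic ribosomal proteins lie close together around 0.79, adipocyte markers spread widely around -2.59, and lists such as sarcomere and contraction fall on both sides of 0.

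The direction of change went with the span of the gene, from start to end with introns. Among called protein-coding genes, 1099 of 1311 upregulated (83.8%) and 1792 of 1986 downregulated genes (90.2%) could be matched by symbol to the RefSeq assembly ARS-UCD2.0. The median span was 8.24 kb for upregulated (quartiles 3.65 and 23.6) and 57.1 kb for downregulated genes (quartiles 26.2 and 119). Among the shortest 579 genes, up to 6.88 kb, 488 or 84.3% were upregulated. Among the longest 578 genes, from 106 kb, the number was 67 or 11.6%. Across the 2891 genes, which are not independent and were all chosen by the same contrast, Spearman's rho between log2 fold change and span was -0.47. The RNA integrity numbers listed for these samples in the study were slightly lower at 72 h than at 0 h in most of the animals. They were not used here, nor was transcript length, and their part in this relation or in any other change was not tested.

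**Figure D5:**
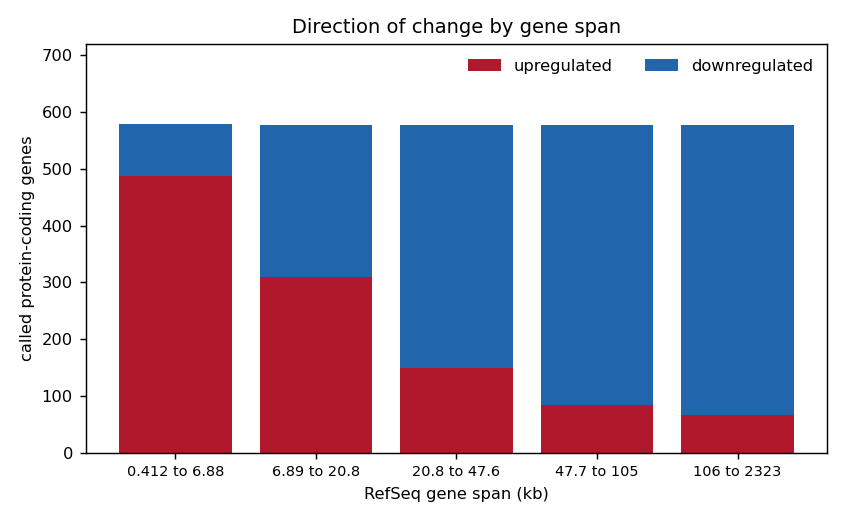
Number of called protein-coding genes (vertical axis, from 0) that were upregulated (red) or downregulated (blue) at 72 h, in 5 bins of equal size by RefSeq gene span in kb (horizontal axis). The upregulated share goes from 84.3% in the shortest to 11.6% in the longest bin.

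Values of whole libraries were compared within the 7 pairs by an exact two-sided permutation of signs, which cannot give a p below 0.016. The 20 most abundant genes took 28.7 to 31.6% of counts at 0 h and 34.9 to 40.6% at 72 h, higher in 7 of 7 animals (mean difference 5.83 percentage points ± 1.79 SD, exact p = 0.016). Library totals differed by 7336930.4 ± 41840295 counts (SD, n = 7, exact p = 0.64), and the number of genes with at least 1 read by -70.4 ± 1026 (exact p = 0.84), both less than the spread between animals. After thinning to the smallest library the latter difference was -134 ± 146 (SD, n = 7, exact p = 0.062).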

How the data were processed

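RNA-Seq libraries of 35 *LT* samples (7 animals at 5 time points) were used, and the comparison concerned 14 of them. The authors trimmed the reads (Trimmomatic 0.39), mapped them to ARS-UCD1.2 (STAR 2.7.0f) and deposited raw counts per Ensembl gene (featureCounts 1.6.4). The counts are those of the sense strand, since the library totals match the range that the methods text gives for it, although the printed counting option is the unstranded one. The count table has 27607 genes.

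Genes were filtered with filterByExpr (minimum count 10) in edgeR 4.0.16 (R 4.3.3), leaving 14630, and normalized by TMM. The quasi-likelihood model of all 35 samples had time point and animal as terms, with Benjamini-Hochberg FDR. Each SE was derived from the test, as the absolute log2 fold change divided by the square root of its F statistic. The animal numbers pair the samples, since they mark 1 carcass: deviations from the group means at 0 h and 72 h correlated within each of the 7 animals (r 0.35 to 0.64, median 0.52), against a median of -0.09 between animals. The steps were tested on simulated data. CPM were scaled by the TMM factors.

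Members and the 32 gene lists were chosen with earlier results of these data known. Symbols came from the supplementary gene lists of the study, of which the copy used here is shortened for genes lower at 72 h, so 3106 genes tested had a symbol and unnamed members are not accounted for. Candidates for ranking were called genes that had a symbol, averaged 1 CPM or more and moved 1 way in 7 animals. Of these, the named ones were those with the 8 smallest FDRs, 5 largest fold changes and 5 largest CPM differences per direction. Up to 3 called members per list and direction with the smallest FDRs were added, without the conditions on CPM and on all 7 animals. Some genes the rule selects are not reported here. Other members named were chosen as examples after their values were seen. RefSeq gene span replaced the planned transcript length and was chosen after seeing the data. The alternatives used limma 3.58.1 and DESeq2 1.42.0, other normalizations, filters, thresholds and samples.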

Additional observations from a re-analysis of the deposited data

Results flagged for a closer look

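In 17 of 200 groups of 7 libraries examined, 1 library stood far from the rest, its gap to the nearest library exceeding 0.568 of the range of the group (log2 CPM for genes). Chance alone flags about 1 in 20 groups.

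At 0 h, animal 103 had high *ANAPC15* (57.2 CPM) and low *FBN1* (120 CPM) and *HOXA4* (1.58 CPM). Animal 104 had low *MYBPC1* (7160.5 CPM), animal 107 high U3 (0.502 CPM), and animal 201 low *SIX2* (6.77 CPM).

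At 72 h, animal 202 had high *CYBB* (10.6 CPM) and *KMT2C* (48.5 CPM) and low *HSPB6* (1604 CPM) and *ZAP70* (3.25 CPM). Animal 206 had high *HOXA6* (4.06 CPM) and low *KLRK1* (0.502 CPM) and *RYR1* (1466 CPM). Low values were those of *HOXA10* in animal 107 (1.59 CPM), *SESN3* in animal 103 (1.67 CPM) and *TCEA3* in animal 104 (207 CPM). The share of counts in the 20 most abundant genes reached 40.6% in 1 library of 72 h.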

How the results depend on the processing

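The calls of 72 h against 0 h kept to within 1.5 times of 1434 upregulated and 2256 downregulated genes under edgeR's likelihood ratio test, DESeq2, limma voom, RLE and upper quartile normalization, other filters, thinned counts, the 14 samples alone and the fit with no replicate block (1276 and 2053). Leaving out 1 animal gave 1286 to 1556 upregulated and 2145 to 2491 downregulated genes. Library totals gave 702 upregulated genes. The test against a fold change of 1.5 gave 494 and 1245, an FDR below 0.05 at any fold change 4849 and 4856, and an FDR below 0.01 with a fold change above 2 gave 244 and 953.

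At 72 h against 48 h (115 and 545), the no replicate block fit gave 28 and 317, library totals 64 and 866, the test against a fold change of 1.5 gave 3 and 8, any fold change 2411 and 2430, the stricter thresholds 15 and 65, and at least 1 CPM in 7 samples 59 upregulated genes. Leaving out 1 animal gave 80 to 160 and 384 to 756. The causes of these shifts were not tested, apart from thresholds that are stricter or looser by construction.

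With at least 1 CPM in 7 samples, the 14 samples alone and thinned counts, the median of the iron list, 0.66 over 7 upregulated and 6 downregulated genes, went to 0.029, -0.022 and -0.023, and that of 3 B cell markers, 0.71, to -2.24, -0.76 and -1.005 on the log2 scale. Library totals lowered the medians of heat shock genes to 0.61, cytosolic ribosomal proteins to 0.61, mitochondrial ribosomal proteins to 0.51, respiratory chain genes to 0.54, sarcomere genes to 0.48 and proteasome genes to -0.19. The upregulated members called then fell to 15 of 32 for the respiratory chain, 6 of 21 for mitochondrial and 36 of 63 for cytosolic ribosomal proteins. With thinned counts, genes with at least 10 reads differed by -176 between 72 h and 0 h (exact p = 0.047, n = 7). Over 154 genes named by rule or in the text and the alternatives that gave a value, 0 values changed direction, 2753 kept their call and 155 lost it. Depth limits rare genes such as *HOXD10* and *PITX1* at 0 h, which rest on a few reads per library.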
